A study of Arabidopsis thaliana with 16 samples.

Results

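The genes GSTU19 to GSTU28 encode tau-class glutathione transferases of Arabidopsis thaliana. Of these 10 genes, 8 were described here, each through the probe set that the array annotation gives to that gene alone, out of 22746 probe sets that were not controls. They are GSTU20 (AT1G78370), GSTU21 (AT1G78360), GSTU22 (AT1G78340), GSTU23 (AT1G78320), GSTU25 (AT1G17180), GSTU26 (AT1G17190), GSTU27 (AT3G43800) and GSTU28 (AT1G53680). GSTU19 and GSTU24 were not analysed here.

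Glutathione transferases join the tripeptide glutathione to electrophilic compounds, and the conjugates are then moved into the vacuole by ABC transporters. The tau class is specific to plants, is known for the detoxification of herbicides and other foreign compounds, and several of its genes respond to chemical stress and to hormones. GSTU20 is also known as a partner of the jasmonate-conjugating enzyme FIN219/JAR1 in far-red light signalling, and GSTU25 is known to act on trinitrotoluene.

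All seedlings carried the puchi-1 mutation and a gPUCHI:GR transgene, in which PUCHI, a transcription factor of the AP2/ERF family that acts in lateral root formation, is fused to a glucocorticoid receptor domain in a genomic construct. Seedlings were 5 days old, and their roots were collected after 4 h of treatment. The 8 groups of 2 arrays were NAA+DEX+CHX, NAA+CHX, DEX+CHX, CHX, NAA+DEX, NAA, DEX and mock, the last with 0.1% DMSO. Dexamethasone (DEX, 2 µM) lets the fusion protein enter the nucleus, naphthaleneacetic acid (NAA, 1 µM) is a synthetic auxin, and cycloheximide (CHX, 10 µM) inhibits protein synthesis. Neither wild-type plants nor plants without the transgene are among the groups, so an effect of DEX itself was not measured. The labels call the replicates independent sets of RNA and do not say whether they were grown separately.

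Pearson's r across probe sets was 0.983 to 0.989 between the 2 arrays of a group, and the 3'/5' intensity ratio of the GAPDH control ranged from 0.763 to 1.57 over the 16 arrays. The PUCHI probe set, which does not separate the fusion gene from the mutant gene, read 1696 to 1916 in the 4 arrays with NAA and without CHX, against 104 to 456 in the other 12. Root hair expansins EXPA7 and EXPA18 were the 2 of 15 root markers measured by name, with lowest array values of 486 and 423. The green tissue marker RCA, the 1 of 14 measured by name, read 309 to 719. The annotation names no gene for 8730 probe sets, so other listed genes may be on the array unnamed. Values below are intensities as deposited. Changes are differences of log2(intensity + 16) with the standard error (SE) of 1 limma model over all 16 arrays. Fold changes are taken from these differences, so for dim genes they fall short of the ratio of the intensities. Changes with a p under 0.05 after Benjamini-Hochberg adjustment over all probe sets count as called. As these are whole roots, fewer cells of a type and less RNA per cell cannot be told apart.

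CHX split the 8 genes. GSTU22 and GSTU25 rose 9.41-fold and 8.44-fold without NAA, while GSTU20, GSTU23, GSTU28, GSTU26 and GSTU27 fell. With 5 genes down and 2 up, the median change was -1.16, against -0.01 over all probe sets. CHX moved much of the transcriptome: 63.9% of probe sets were called without NAA (29.5% rose and 34.4% fell), so a call by itself sets no gene apart.

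**Figure D1:**
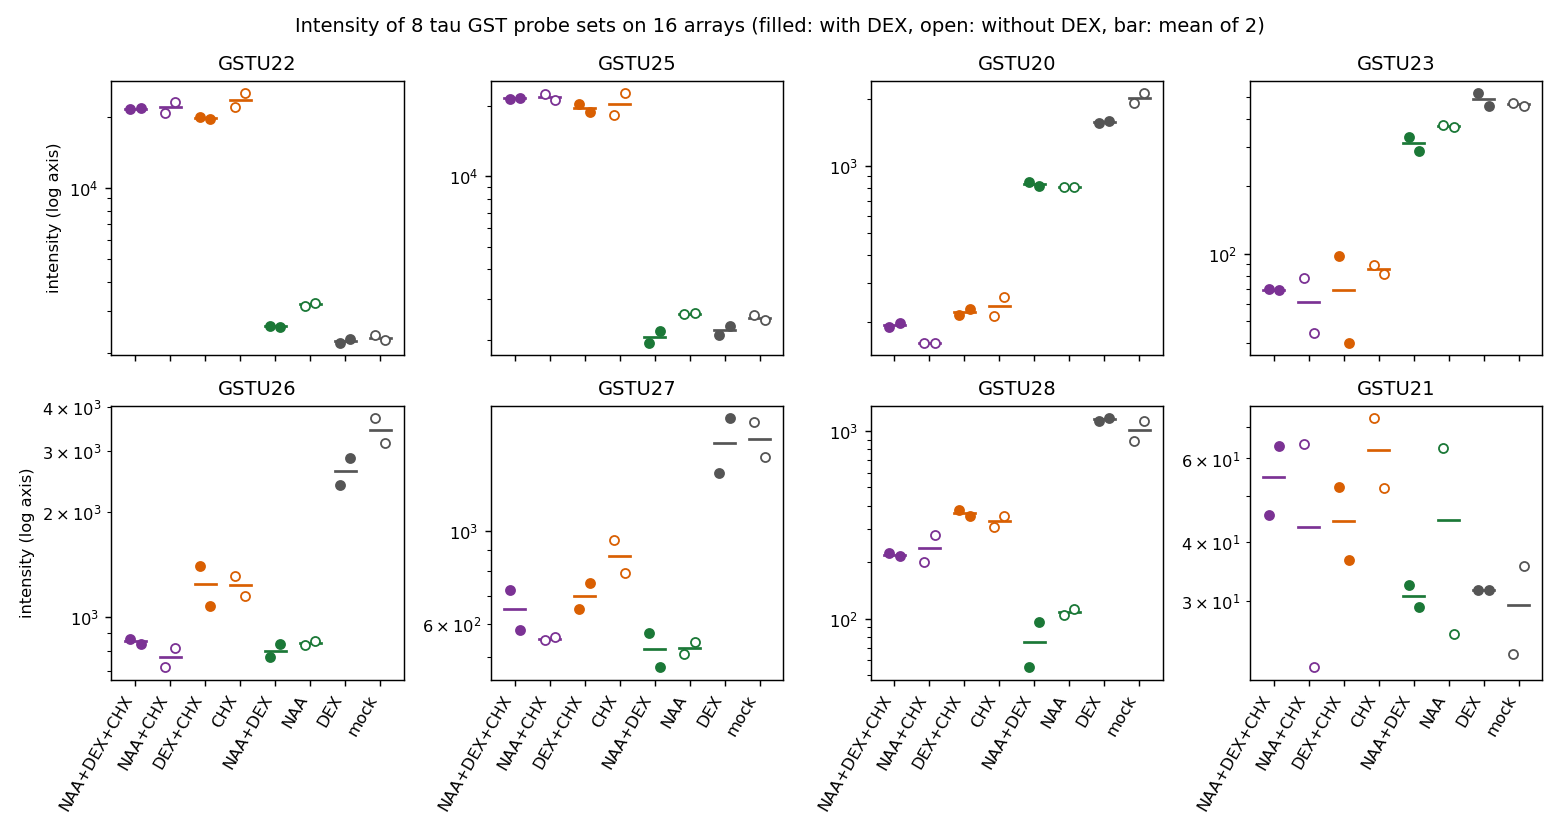
Intensity (log axis) of each of the 8 tau GST probe sets in the 8 groups. Points are single arrays (filled with DEX, open without), bars are means of 2; the 8 arrays with CHX lie above all others for GSTU22 and GSTU25 and below all others for GSTU20 and GSTU23.

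GSTU22 read 21442 and 21819.8 in NAA+DEX+CHX roots, 20712 and 22997 in NAA+CHX roots, 19928 and 19626 in DEX+CHX roots and 21981 and 25048 in CHX roots. Without CHX it read 2605 and 2573 in NAA+DEX roots, 3151 and 3247 in NAA roots, 2201 and 2277 in DEX roots and 2365 and 2258 in mock roots. The 8 arrays with CHX thus lay far above the 8 without, with no overlap. The rise with CHX was 3.23 without NAA (SE 0.0639, limma adjusted p 4.01e-17, 4 arrays against 4) and 2.91 with NAA (SE 0.0639, limma adjusted p 1.65e-16).

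GSTU25 had nearly the same profile. It read 21386 and 21577 in NAA+DEX+CHX roots, 22347 and 21197 in NAA+CHX roots, 20307 and 18709 in DEX+CHX roots and 18252 and 22529 in CHX roots. Without CHX its values were 1947 and 2190.3 with NAA+DEX, 2571 and 2614 with NAA, 2107 and 2292 with DEX, and 2549 and 2439 in the mock. Again no array with CHX overlapped any without. CHX raised it by 3.08 without NAA (SE 0.0739, limma adjusted p 4.73e-16) and by 3.22 with NAA (SE 0.0739, limma adjusted p 2.92e-16). Over the 8 group means, which share the same arrays, Pearson's r between GSTU22 and GSTU25 was 0.996.

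GSTU20 went the other way. It read 191 and 197 in NAA+DEX+CHX roots, 161 and 161 in NAA+CHX roots, 214 and 229 in DEX+CHX roots and 212 and 258 in CHX roots. Without CHX the values were 846 and 814 with NAA+DEX, 806 and 809.7 with NAA, 1567 and 1604 with DEX, and 1929.8 and 2124 in the mock. The arrays thus stood at 3 separate heights, lowest with CHX, intermediate with NAA alone or with DEX, and highest without NAA or CHX. CHX lowered GSTU20 7.42-fold without NAA (log2 change -2.89, SE 0.0747, limma adjusted p 1.26e-15) and 4.33-fold with NAA (log2 change -2.11, limma adjusted p 8.38e-14).

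GSTU23 ranged from 40.1 to 97.3 over the 8 arrays with CHX, against 288 to 518 over the 8 arrays without it. It fell 5.47-fold with CHX in the absence of NAA (log2 change -2.45, SE 0.184, limma adjusted p 2.4e-09) and had a log2 change of -2.15 in its presence (limma adjusted p 1.36e-08). The 2 arrays of DEX+CHX roots were apart, at 97.3 and 40.1, while those of NAA+DEX+CHX roots were close, at 69.5 and 69.1. Its group means followed those of GSTU20 with r = 0.979 over 8 groups.

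The other 3 genes that fell with CHX fell less. Without NAA, GSTU28 had a log2 change of -1.58 (SE 0.137, limma adjusted p 1.54e-08), GSTU26 one of -1.27 (SE 0.0895, limma adjusted p 9.85e-10) and GSTU27 one of -1.04 (SE 0.107, limma adjusted p 1.44e-07). In the presence of NAA, 64.3% of all probe sets were called for CHX (29.1% rose and 35.1% fell). There 3 of the 8 genes rose and 2 fell: GSTU22 and GSTU25 stayed among the rises, GSTU20 and GSTU23 among the falls, and GSTU28 changed direction. GSTU26 and GSTU27 had values of -0.03 (95% interval -0.22 to 0.16) and 0.19 (-0.04 to 0.41) short of the threshold (limma adjusted p 0.826 and 0.145).

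The GAPDH 3'/5' ratio, a sign of RNA integrity, averaged 1.04 ± 0.201 in the 4 arrays with CHX and without NAA and 1.38 ± 0.179 in the 4 arrays with neither (SD, n = 4 each). Its part in the CHX changes was not tested. Of the marker genes, EXPA18 and RCA also fell with CHX without NAA, by 1.16 and 0.69 (limma adjusted p 1.47e-08 and 2.26e-05), and EXPA7 had a value of -0.18 (0.142). Their part was not tested either. With NAA the same ratio was 1.21 ± 0.302 with CHX and 1.31 ± 0.302 without CHX (SD, n = 4 each).

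Auxin lowered 4 of the 8 genes and raised 1. Without CHX, NAA lowered GSTU28 10.3-fold, GSTU26 3.6-fold, GSTU27 3.03-fold and GSTU20 2.17-fold, and it raised GSTU22 1.26-fold. The background was 37.8% of probe sets called, 19.0% up and 18.8% down. The median change of the 8 genes was -0.79, against 0.00 over all probe sets. Both root hair markers and RCA fell with NAA as well, EXPA18 by 0.69, EXPA7 by 0.64 and RCA by 0.55 (limma adjusted p 2.89e-05, 7.24e-05 and 0.00052), and their part in the changes of the 8 genes was not tested. The GAPDH ratio was 1.31 ± 0.302 with NAA and 1.38 ± 0.179 without NAA (SD, n = 4 each).

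GSTU28 had the widest span of the 8 genes. It read 55.0 and 95.7 in NAA+DEX roots and 104 and 113 in NAA roots, against 1135 and 1171 in DEX roots and 881 and 1133 in mock roots. All 4 arrays with NAA lay below all 4 without it. The change was -3.37 (SE 0.137, limma adjusted p 6.5e-12, 4 arrays against 4), which is -3.71 in the roots with DEX and -3.03 in those without. Its group means spanned 3.71 on the log2 scale, wider than in all but 5.3% of probe sets. The spans of GSTU20, GSTU25 and GSTU22 were close to this, at 3.53, 3.39 and 3.38.

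GSTU26, whose transcript is known to respond to herbicides, read 766 and 835 in NAA+DEX roots and 831 and 853 in NAA roots. In DEX roots it read 2394 and 2852, and in mock roots 3724 and 3164. The groups with NAA lay together and well below those without. The change was -1.85 (SE 0.0895, limma adjusted p 5.95e-11).

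GSTU27, the 1 gene of the 8 on chromosome 3, read 474 to 573 in the 4 arrays with NAA and without CHX. In the 4 arrays without NAA or CHX it read 1374 to 1850.3. It changed by -1.60 (SE 0.107, limma adjusted p 3.57e-09). Over the 8 group means, GSTU27 ran with GSTU26 (r = 0.979) and with GSTU28 (r = 0.938), and GSTU26 with GSTU28 (r = 0.906).

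GSTU20 fell with NAA by 1.11 on the log2 scale (SE 0.0747, limma adjusted p 3.66e-09). GSTU22 rose by 0.34 (SE 0.0639, limma adjusted p 0.000427). Its 4 arrays with NAA lay above the 4 without. Within the roots given DEX, however, the value was 0.21 and did not pass (limma adjusted p 0.104), against 0.47 in the roots without DEX. GSTU23 had a change of -0.47 that missed the threshold (limma adjusted p 0.0562), and it passed in 8 of 25 alternative settings. GSTU25 had a value of -0.02 with an interval of -0.17 to 0.14, so a change with NAA as large as that of GSTU20 lies outside its interval.

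**Figure D2:**
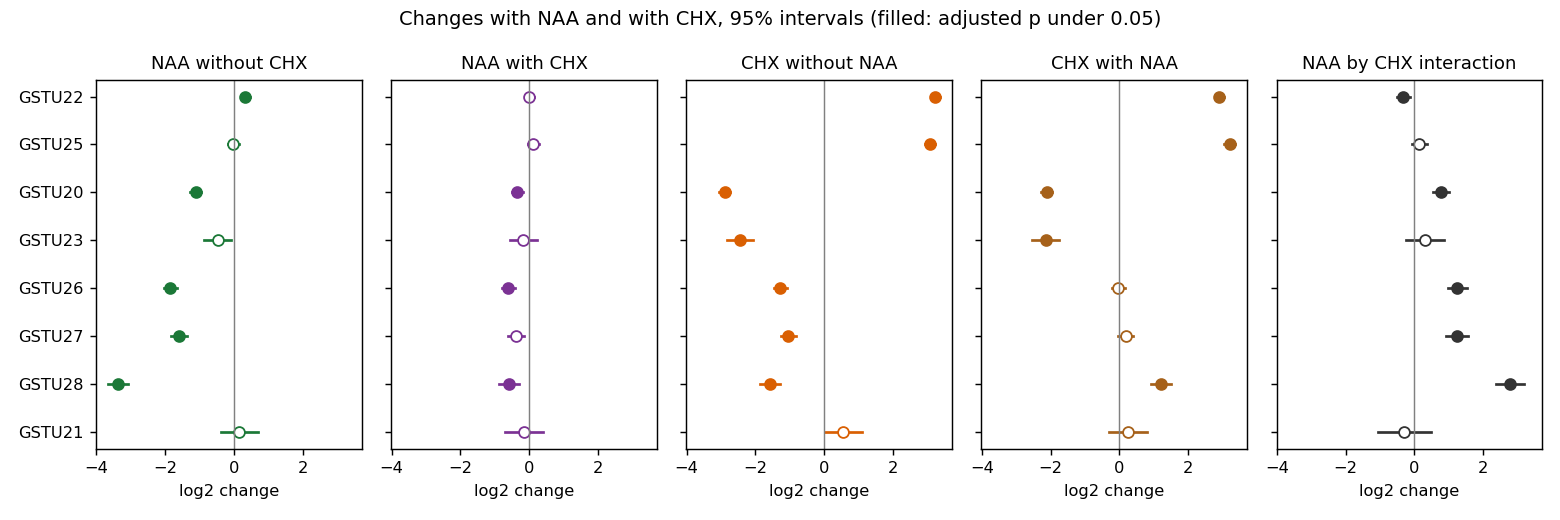
Log2 changes of the 8 genes (points) with 95% intervals (lines) for NAA and CHX, each in the absence and presence of the other, and for their interaction. Filled points passed the test; GSTU28 has the largest fall with NAA (-3.37) and the largest interaction (2.79).

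The response to NAA was also measured in the presence of CHX. There 3 of the 8 genes fell and 0 rose, beside 4.47% of probe sets called (1.38% up and 3.09% down). Both root hair markers fell here too, EXPA7 by 0.60 and EXPA18 by 0.39 (limma adjusted p 0.00247 and 0.0361), and RCA had a value of -0.12 (0.657). Their part in the changes of the 3 genes was not tested. GSTU26 read 862 and 839 in NAA+DEX+CHX roots and 717 and 814 in NAA+CHX roots, against 1403 and 1078 in DEX+CHX roots and 1313 and 1151 in CHX roots. Its change was -0.60 (SE 0.0895, limma adjusted p 0.000903). The call remained in each of the 16 fits without 1 array.

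GSTU28 read 223 and 215 in NAA+DEX+CHX roots and 199 and 278 in NAA+CHX roots, against 381 and 353 in DEX+CHX roots and 309 and 351 in CHX roots. The 4 arrays with NAA lay below the others, with a change of -0.58 (SE 0.137, limma adjusted p 0.0225). GSTU20 had the smallest called change, -0.34 (SE 0.0747, limma adjusted p 0.0152). The call of GSTU28 ended without CHX replicate 2 (-0.53), DEX+CHX replicate 1 (-0.55) or 2 (-0.61), NAA+CHX replicate 1 (-0.47), or NAA+DEX+CHX replicate 1 (-0.59) or 2 (-0.57). For GSTU20 the call was lost without replicate 2 of CHX (-0.27) or of DEX+CHX (-0.32). GSTU27 had a value of -0.37 that missed the threshold (limma adjusted p 0.0616). It passed without DEX replicate 1 or 2 (-0.37 each) or NAA+DEX+CHX replicate 1 (-0.45). GSTU21, GSTU22, GSTU23 and GSTU25 had values of -0.16 to 0.12.

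The interaction of NAA with CHX tests whether the 2 NAA changes differ. It was positive for GSTU28 at 2.79 (SE 0.193, limma adjusted p 1.5e-08), GSTU26 at 1.25 (SE 0.127, limma adjusted p 1.41e-06), GSTU27 at 1.23 (SE 0.151, limma adjusted p 1.24e-05) and GSTU20 at 0.78 (SE 0.106, limma adjusted p 3.46e-05). For these 4 genes the fall with NAA was therefore smaller in the presence of CHX. It was negative for GSTU22 at -0.32 (limma adjusted p 0.0139), with a value of -0.57 in the groups without DEX and of -0.08 in those with DEX, the last not called. Over all probe sets 24.3% were called, 11.8% positive and 12.5% negative.

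For GSTU28 the 2 agents together gave a higher level than NAA without CHX. The 4 arrays with NAA and CHX read 199 to 278, against 55.0 to 113 in the 4 arrays with NAA and without CHX. This was a rise of 1.21 (SE 0.137, limma adjusted p 4.99e-07). Each of these sets held 2 arrays that also had DEX. Both sets lay below the 881 to 1171 of the 4 arrays with neither agent. GSTU26 and GSTU27 showed no such called difference.

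Ordered from high to low, the group means of GSTU28 ran DEX, mock, DEX+CHX, CHX, NAA+CHX, NAA+DEX+CHX, NAA and NAA+DEX. The neighbours DEX and mock, DEX+CHX and CHX, and NAA+CHX and NAA+DEX+CHX did not differ beyond the 95% interval of their difference. These intervals are not adjusted over the steps, which follow the observed order. The step from NAA to NAA+DEX is the contrast of DEX with NAA, which was not called (limma adjusted p 0.602). For GSTU26, whose step from mock to DEX was likewise not called (limma adjusted p 0.834), the order was mock, DEX, DEX+CHX, CHX, NAA+DEX+CHX, NAA, NAA+DEX and NAA+CHX, and no neighbouring groups among its last 4 differed beyond the interval. GSTU27 had mock and DEX on top, with the interval of the next step, from DEX to CHX, at 0.55 to 1.19. The 5 steps below it each had an interval that held 0.

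For GSTU22 and GSTU25 the 4 groups with CHX came first, and no neighbouring groups among these 4 differed beyond the interval. The step from the lowest group with CHX to the highest without, DEX+CHX against NAA, was 2.62 (95% interval 2.43 to 2.81) for GSTU22 and 2.90 (2.68 to 3.12) for GSTU25. For GSTU23 the 1 step whose interval left out 0 was NAA+DEX above CHX, at 1.69 (1.13 to 2.24). GSTU20 had 4 such steps, mock above DEX, DEX above NAA+DEX, NAA above CHX and NAA+DEX+CHX above NAA+CHX, of which NAA above CHX was the widest at 1.72. The first and the last of the 4 are the contrasts of DEX alone and of DEX with both agents, and neither was called (limma adjusted p 0.756 and 0.644).

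GSTU21 was dim throughout, at 21.7 to 73.1 over the 16 arrays, and its replicates differed by as much as 64.4 and 21.7 in NAA+CHX roots. It passed none of the 12 tests. With CHX and without NAA its value was 0.56 (95% interval 0.01 to 1.11, limma adjusted p 0.0703). The file gives no detection calls, and at this level the intervals reach about 0.55 to either side of a 4 against 4 difference. No neighbouring groups in its order differed beyond the interval.

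DEX was given in 4 backgrounds, without or with NAA and CHX, and none of the 8 genes passed the test for DEX in any of them. For the average over the backgrounds the values lay between -0.15 (GSTU22) and -0.03 (GSTU20), with limma adjusted p of 0.425 to 0.979 and 0 of 8 called, beside 0.0791% of all probe sets. At an unadjusted p under 0.05 there were 2 of 8, GSTU22 and GSTU25, beside 1581 of all 22746 probe sets. The 95% intervals over all 8 genes reached from -0.45 to 0.33 at their widest, for GSTU21. Among the other 7 they reached from -0.36 to 0.19, so larger falls or rises on average lie outside them.

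**Figure D3:**
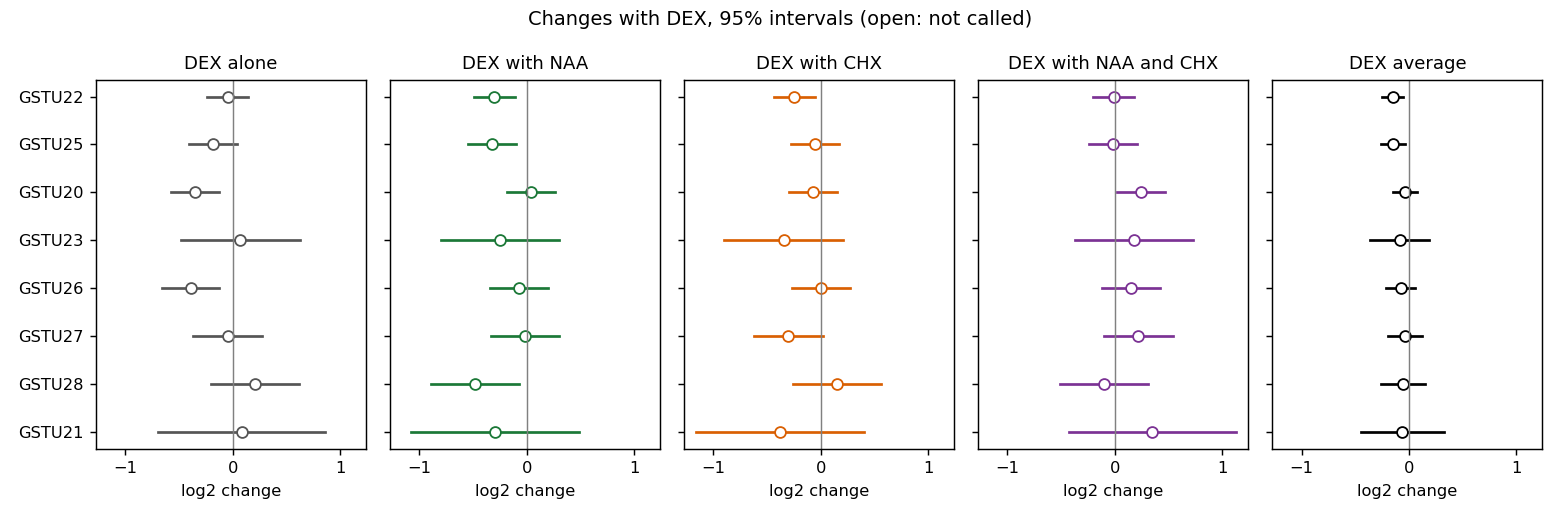
Log2 changes with DEX of the 8 genes (points) with 95% intervals (lines), in each of the 4 backgrounds (2 arrays against 2) and on average (8 against 8). All points are open, since no change passed the test; the average values lie between -0.15 and -0.03.

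Single backgrounds gave wider intervals, with 2 arrays against 2. DEX alone had 0 of 8 called in limma (0.0220% of all probe sets). At an unadjusted p under 0.05 there were 2 of 8, beside 1068 of all 22746 probe sets. The 2 genes were GSTU26 at -0.39 and GSTU20 at -0.35, both with the DEX arrays below the mock arrays (limma adjusted p 0.834 and 0.756). With NAA there were 0 called in limma (0.0352%). At an unadjusted p under 0.05 (1634 of all probe sets) there were 3, GSTU28 at -0.49, GSTU25 at -0.33 and GSTU22 at -0.30. The value of GSTU28 was -0.16 without NAA+DEX replicate 1 and -0.81 without NAA+DEX replicate 2. With CHX there were 0 called in limma (0.0132%) and 1 at an unadjusted p under 0.05 (1508 of all probe sets), GSTU22 at -0.25. With both there were 0 called in limma (0.0308%) and 1 at an unadjusted p under 0.05 (1722 of all probe sets), GSTU20 at 0.24. The sign for GSTU20 thus differed between DEX alone and DEX with both agents.

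Neither the interaction of DEX with NAA (0% of probe sets called) nor that of DEX with CHX (0.00440%) was called for any of the 8 genes in limma. At an unadjusted p under 0.05 there were 2 genes each, beside 1334 and 1721 of all 22746 probe sets. The largest values among the 8 genes were -0.47 for GSTU28 and 0.35 for GSTU20 with NAA, and 0.31 for GSTU26 and 0.24 for GSTU20 with CHX. Their limma adjusted p were 0.831, 0.808, 0.602 and 0.632.

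By the gene order of the TAIR10.1 assembly, GSTU23, GSTU22, GSTU21 and GSTU20 are 4 protein-coding genes in a row, and GSTU25 and GSTU26 are direct neighbours, all on chromosome 1. Direct neighbours in such a row did not all respond alike. GSTU23 and GSTU20, at the ends of the row of 4, both fell with CHX (r = 0.979 over 8 group means). With CHX and without NAA, GSTU25 had a change of 3.08 and its neighbour GSTU26 one of -1.27, a difference within arrays of 4.35 (2-sided exact permutation p 0.0286, 4 arrays against 4, adjusted p 0.0381 over 16 tests). GSTU22 and its neighbour GSTU23 differed by 5.69 in the same way (exact permutation p 0.0286, adjusted p 0.0381).

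This test was added after the data were seen, on 4 neighbouring pairs and 4 comparisons. The smallest p that 4 arrays against 4 allow is 0.0286. Without NAA, the 4 arrays with CHX lay above the 4 without for GSTU25 and GSTU22, and below them for GSTU26 and GSTU23. The p of these 2 pairs was thus fixed by those changes and adds nothing to them. The same held for GSTU22 against GSTU23 for NAA without CHX and for CHX with NAA. It also held for GSTU21 against GSTU20 for CHX without NAA. In all, 12 of the 16 differences had an adjusted p under 0.05, each with an exact permutation p of 0.0286. As several of these were fixed in this way, the count is not an independent result. With NAA and without CHX, GSTU25 and GSTU26 differed by 1.83 (exact permutation p 0.0286, adjusted p 0.0381). The 4 that did not pass were GSTU22 against GSTU23, GSTU22 against GSTU21 and GSTU21 against GSTU20 for NAA with CHX, and GSTU22 against GSTU21 for NAA without CHX. Conversely, GSTU22 and GSTU25 lie in separate rows and both rose with CHX.

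Likeness was taken as Pearson's r over the 8 group means. As 63.9% of probe sets were called for CHX without NAA, a high r by itself sets no gene apart. The genes most like each of the 8 were sought among 7425 to 7426 probe sets that name 1 gene and span at least 1 on the log2 scale. For GSTU25 they were AT5G44990, AT4G36550, AT5G55100, AT3G55470 and AT4G01090 (r = 0.999 to 1.000). For GSTU22 they were AT1G27820, AT5G39580 (a class III peroxidase), AT1G32920, AT5G50900 and AR781, at r = 0.999 each.

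For GSTU28 they were AT3G59370, AT2G47540, AT1G74840, AT3G43960 and AT4G33420 (r = 0.981 to 0.991). GSTU26 and GSTU27 shared their closest gene, AT2G01540 (r = 0.986 and 0.990), and also AT4G25250, a pectin methylesterase inhibitor family gene (r = 0.981 and 0.986). The others were AT5G47980, AT3G20680 and TBL38 for GSTU26, and AT1G72200, AT2G39040 and AT5G01790 for GSTU27. For GSTU20 they were AT1G62330, AT4G16660, NAI2, AT5G10580 and AT4G24330 (r = 0.996 to 0.997). For GSTU23 they were AT3G22240, 2A6, AT1G73650, AT3G51000 and AT3G03150 (r = 0.998 to 1.000). For GSTU21, with no called change, r was at most 0.955 (AT5G11290, AT2G05270, GH9B16, AT3G33066 and AT2G41930).

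Of all 28 tau genes, 11 were measured by name, which adds GSTU15, GSTU16 and GSTU18 to the 8. With CHX and without NAA 2 of 11 rose and 7 fell (median -1.11, against -0.01 over all probe sets), beside 29.5% of all probe sets up and 34.4% down. GSTU18 read 27.2 to 34.0 in the 4 arrays with CHX, against 296 to 325 in the 4 without, and fell by 2.79 (SE 0.14, limma adjusted p 1.03e-11). It also fell with NAA by 1.40 (limma adjusted p 4.64e-07). GSTU16 fell with CHX by 1.11 (limma adjusted p 0.00312) and rose with NAA by 0.84 (SE 0.293, limma adjusted p 0.0322). GSTU15, at 2.0 to 41.5 over all arrays, had values of 0.38 with CHX and 0.35 with NAA, short of the threshold (limma adjusted p 0.365 and 0.488). For NAA without CHX 2 of 11 rose and 5 fell (median -0.47, against 0.00), beside 19.0% up and 18.8% down.

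Of 25 genes in other GST classes 3 were measured by name. The annotation names no gene for 8730 probe sets, so others may be on the array unnamed. With CHX and without NAA 1 of the 3 rose and 2 fell (median -1.37), beside 29.5% of all probe sets up and 34.4% down. The phi-class ATGSTF13 fell by 1.45 and the lambda-class GSTL3 fell by 1.37, while the phi-class GSTF4 rose by 0.86 (limma adjusted p 1.92e-09, 1.78e-09 and 8.73e-09). With NAA and without CHX 0 rose and 2 fell, beside 19.0% of all probe sets up and 18.8% down. ATGSTF13 changed by -0.55 and GSTL3 by -0.41 (limma adjusted p 0.000539 and 0.00391). Of 19 genes of glutathione synthesis, recycling and turnover, the glutathione reductases GR1 and GR were measured by name. Both fell with CHX without NAA, with changes of -1.03 and -0.85 (limma adjusted p 4.13e-10 and 1.2e-08), beside 34.4% of all probe sets that fell. With NAA and without CHX 1 of the 2 rose, GR1 at 0.24 (limma adjusted p 0.0109), beside 19.0% of all probe sets that rose. None of the 7 TGA factors and SCL14, regulators of such genes, was measured by name.

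Of 17 xenobiotic response genes 4 were measured by name. All 4 rose with CHX without NAA (median 3.93, against -0.01 over all probe sets), beside 29.5% of all probe sets that rose. This list was chosen with earlier results of these data known, so its count is not an independent result about such genes. AT2G04050, a MATE-type transporter, read 10630.4 to 12788 in the 4 arrays with CHX, against 3.5 to 24.5 in the 4 without. It rose by 8.62 (SE 0.143, limma adjusted p 4.32e-18). The glycosyltransferases UGT73B4, UGT73B5 and UGT71C5 rose by 4.47, 3.38 and 1.95 (limma adjusted p 1.34e-18, 1.24e-16 and 1.3e-13). With NAA and without CHX 1 of the 4 rose, UGT73B4 by 0.81 (limma adjusted p 5.55e-08), beside 19.0% of all probe sets that rose.

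**Figure D4:**
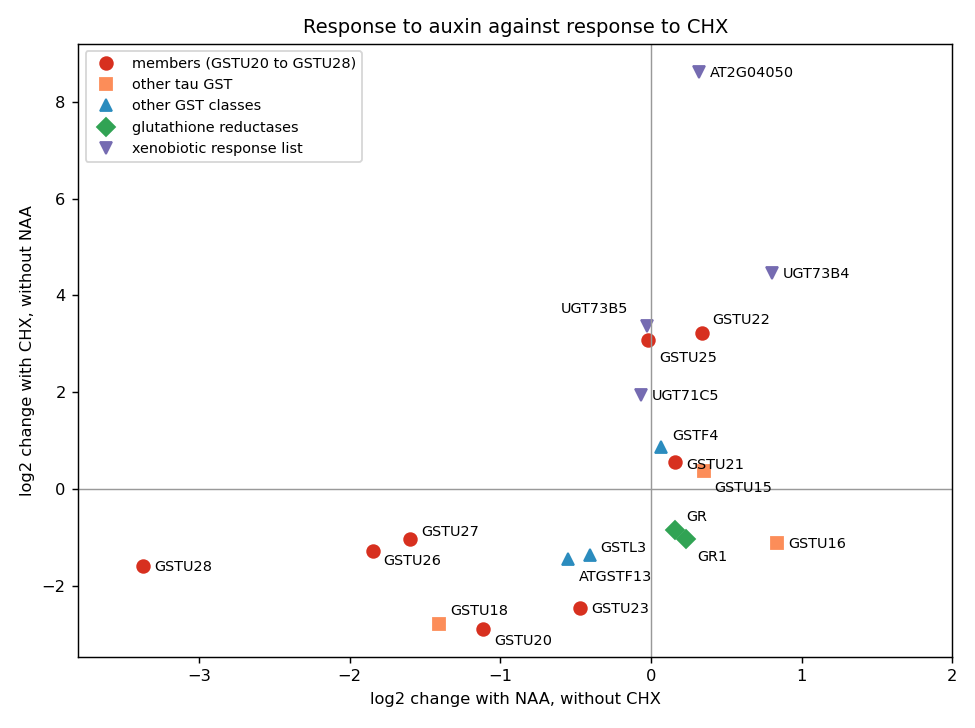
Log2 change with NAA (x axis, without CHX) against log2 change with CHX (y axis, without NAA) for the 8 genes and the other measured genes of the GST, glutathione and xenobiotic lists. GSTU22, GSTU25 and the 4 xenobiotic response genes lie above 1.9 on the y axis; GSTU26, GSTU27 and GSTU28 lie farthest left among the 8 genes.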

How the data were processed

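Root RNA of 16 samples was hybridised as biotin-labelled cRNA, 1 sample to each 1-colour Affymetrix 3' array. The deposited values are linear intensities per probe set from Affymetrix Expression Console 1.3, per the submitters' processing notes. The summarisation algorithm is not stated there. The authors scaled each array, since the 2% trimmed mean (trimmed at both ends) was 500 on each when checked. Such scaling cannot show a shift of all transcripts. Of 22810 probe sets, 64 controls were left out and 22746 tested. The annotation names 1 gene for 13513, several for 503 and none for 8730. Symbols came from gene IDs in the TAIR10.1 table (13436 matched). The files name no genome build, so no coordinates are given.

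Values were taken as log2(intensity + 16), which understates changes of dim genes. A model with 1 mean per group over all 16 arrays was fitted with limma 3.58.1 in R 4.3.3, with a variance trend (8 residual and 7.94 prior degrees of freedom), for 12 comparisons. Those of NAA and CHX average both DEX states. Tests are 2-sided, and p-values measure only the spread between these samples. The script was tested on simulated data. Equally numbered arrays did not deviate together from their group means (r -0.05 to 0.06 over 28 pairs), so replicate numbers were not taken as pairs. The genes, lists and comparisons were chosen with earlier results of these data known. Named are the 8 genes, all other measured tau genes, up to 4 called genes per other list for NAA without CHX and CHX without NAA, and the 5 genes most like each. Where several probe sets name a gene, the brightest was used. Alternatives were quantile normalization, the brightest 60% of probe sets (13648), a replicate block, no variance trend, pseudocounts of 1 and 64, only the arrays compared, each DEX state alone, and leaving out each array.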

Additional observations from a re-analysis of the deposited data

Results flagged for a closer look

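The response to NAA differed between roots with and without CHX for 5 of the 8 genes, by limma's test of the interaction. That test called 24.3% of all probe sets, 11.8% positive and 12.5% negative. The difference, NAA change with CHX minus NAA change without, was 2.79 for GSTU28, 1.25 for GSTU26, 1.23 for GSTU27, 0.78 for GSTU20 and -0.32 for GSTU22. For GSTU22 the value within the groups with DEX was -0.08 (limma adjusted p 0.769). With 2 arrays a group, no single array could be tested for lying apart.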

How the results depend on the processing

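Over 96 combinations of a gene and a comparison, 2213 of 2244 alternative values kept their side of the threshold, 16 calls were lost, 15 were gained and 0 reversed; 76 values that were never called changed sign. Within the groups with DEX, 0 genes fell with NAA in the presence of CHX, against 3 in the full comparison. In those groups 0 rose with NAA without CHX, against 1, and 0 had a negative interaction of NAA with CHX, against 1. Leaving out 1 array gave 1 to 4 genes that fell for NAA with CHX, the lowest without CHX replicate 2 or DEX+CHX replicate 2. There GSTU20 also missed the threshold with only the arrays compared (limma adjusted p 0.165), as did GSTU28 without the variance trend (0.0794) and in the groups with DEX (0.101) or without DEX (0.342), and GSTU26 in the groups with DEX (0.055). GSTU27 passed for NAA with CHX among the brightest 60% of probe sets (0.0362). GSTU23 passed for NAA without CHX there (0.0296), with the replicate block (0.0307), a pseudocount of 64 (0.0119), only the arrays compared (0.000699), and without either replicate of DEX+CHX or of NAA+CHX. GSTU21 passed for CHX without NAA with only the arrays compared (0.0313) and without either replicate of NAA+CHX. The replicate block gave 5 genes that fell with NAA without CHX, against 4, and changed no other call of the 8 genes. The causes were not tested.

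Of all probe sets, 1017 were called for NAA with CHX, against 572 without the variance trend, and 672, 618 and 619 without replicate 2 of CHX, DEX+CHX or NAA+CHX. The few calls for DEX moved most: 5 alone became 0 to 17, 8 with NAA 0 to 40, 3 with CHX 0 to 11, 7 with both 0 to 12, 18 on average 10 to 23, 0 for DEX by NAA up to 3, and 1 for DEX by CHX 0 to 6. Quantile normalization moved the median of all probe sets by at most 0.097. The dim GSTU21 and GSTU23 have the widest intervals, and the number of arrays limits the precision.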
